A study of Mus musculus with 20 samples.

Results

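Aldehyde and retinol oxidizing enzymes of mouse liver were followed here through 10 genes: the aldehyde oxidases Aox1 and Aox3, the aldehyde dehydrogenases Aldh1a1, Aldh1a7, Aldh1b1, Aldh3a2 and Aldh3b3, and the retinol dehydrogenases Rdh9, Rdh16 and Rdh16f2. They are 10 of the 36106 genes in the count table, and all 10 were among the 16164 genes that passed a filter on low counts. Membership was by gene symbol, with no threshold, but the list was chosen by looking at expression results of these same libraries, among them the orchiectomy fold changes of Aldh3b3 and Aldh1b1. Orchiectomy differences of the members are therefore given as description, without p-values. Other p-values of the members use some of the same libraries, so they are not independent of that choice. The study took liver RNA from male mice that had their testes removed (orchiectomy, ORX) or a sham operation (Sham) and then spent 2 weeks in intermittent hypoxia (IH) or normoxia (Nx). The groups were ORX_IH with 5 mice, ORX_Nx with 5, Sham_IH with 5 and Sham_Nx with 4 mice analysed. Strain, age and the oxygen schedule are not given in the sources used here.

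Aldehyde oxidases are molybdenum-containing flavoenzymes of the cytosol that oxidize aldehydes and nitrogen heterocycles, and they are best known in liver for drug oxidation. Aldehyde dehydrogenases turn aldehydes into carboxylic acids with NAD or NADP. Retinol dehydrogenases oxidize retinol to retinal in the endoplasmic reticulum, after which some Aldh1a enzymes can make retinoic acid. Several rodent enzymes of the Rdh16 type also oxidize hydroxyl groups of androgens.

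Most members lie in clusters of paralogs. In the RefSeq gene table, Aox1 and Aox3 are neighbours on chromosome 1, with Aox4 and Aox2 next to them, and Aldh1a1 and Aldh1a7 are neighbours on chromosome 19. Aldh3b3 lies beside Aldh3b2 on chromosome 19. Rdh9, Rdh16, Rdh19, Rdh16f2 and Rdh7 follow each other on chromosome 10. To show how far the regulatory sequence of the retinol dehydrogenase neighbours and of Aldh3b3 differ, the 250 bases before each annotated start are printed 5′ to 3′ on the gene's strand, from the RefSeq promoter table on build GRCm38.p6. This build is older than the GRCm39 of the study. Capitals mark the letters AGGTCA (a nuclear receptor half-site) and TTCNNNGAA (a STAT-type motif), searched on both strands.
Rdh9, Rdh16 and Rdh16f2 stand at chr10:127776155-127776404, chr10:127800903-127801152 and chr10:127866226-127866475, all on the plus strand, and Aldh3b3 at chr19:3958558-3958807, also plus.
Rdh9: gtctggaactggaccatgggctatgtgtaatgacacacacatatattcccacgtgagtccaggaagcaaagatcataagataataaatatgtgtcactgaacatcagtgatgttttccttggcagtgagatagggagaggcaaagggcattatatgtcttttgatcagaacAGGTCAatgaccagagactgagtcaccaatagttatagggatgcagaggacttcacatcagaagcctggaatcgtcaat
Rdh16: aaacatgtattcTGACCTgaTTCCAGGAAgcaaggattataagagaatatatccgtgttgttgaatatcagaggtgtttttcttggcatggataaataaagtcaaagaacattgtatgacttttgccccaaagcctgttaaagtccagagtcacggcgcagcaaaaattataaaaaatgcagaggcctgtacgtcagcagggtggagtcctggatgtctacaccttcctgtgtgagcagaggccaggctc
Rdh16f2: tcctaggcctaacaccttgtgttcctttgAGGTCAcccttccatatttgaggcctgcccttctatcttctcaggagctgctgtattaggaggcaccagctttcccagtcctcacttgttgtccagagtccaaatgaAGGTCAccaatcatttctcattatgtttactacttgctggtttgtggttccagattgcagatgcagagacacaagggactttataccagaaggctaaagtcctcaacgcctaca
Aldh3b3: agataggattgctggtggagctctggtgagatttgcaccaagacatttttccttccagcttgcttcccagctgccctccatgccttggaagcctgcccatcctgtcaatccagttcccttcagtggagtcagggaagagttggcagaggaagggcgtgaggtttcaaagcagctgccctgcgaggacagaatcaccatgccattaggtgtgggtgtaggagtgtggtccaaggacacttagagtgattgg

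AGGTCA was present in 14.0% of the 32851 promoter windows of the same length and in 3 of the 10 members. Rdh16f2 holds 2 copies, the farther one starting 221 bases before the start, Rdh9 holds 1 at 79 bases, and Rdh16 holds 1 on the opposite strand at 238 bases. TTCNNNGAA was present in 7.02% of the windows and, among the members, in Rdh16 only, 230 bases before the start and not overlapping its half-site. Aldh3b3 holds neither in this window. Aligned over the same windows, Rdh9 and Rdh16 were 53.6% identical and Rdh16 and Rdh16f2 were 42.3% identical. These letter matches describe the windows and are not evidence of binding.

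The closest promoter pair among those aligned was Aldh1a1 and Aldh1a7, shown because the pair also shares transcript sequence. Their windows at chr19:20601718-20601967 (plus strand) and chr19:20727557-20727806 (minus strand) were 65.3% identical. Capitals now mark their longest shared run, 65 bases that end 30 bases before the start in both genes. A further Aldh1a1 window, at chr19:20492333-20492582, was not aligned.
Aldh1a1: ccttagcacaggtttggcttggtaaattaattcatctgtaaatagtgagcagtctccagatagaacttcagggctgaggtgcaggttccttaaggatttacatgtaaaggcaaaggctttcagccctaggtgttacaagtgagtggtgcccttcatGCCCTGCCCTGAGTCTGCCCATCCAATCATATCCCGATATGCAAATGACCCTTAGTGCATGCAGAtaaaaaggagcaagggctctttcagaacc
Aldh1a7: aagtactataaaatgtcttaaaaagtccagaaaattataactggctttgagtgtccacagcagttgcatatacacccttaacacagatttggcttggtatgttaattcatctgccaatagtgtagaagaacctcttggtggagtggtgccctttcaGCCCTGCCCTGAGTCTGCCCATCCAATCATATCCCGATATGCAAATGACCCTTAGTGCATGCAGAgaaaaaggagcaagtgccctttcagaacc

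Shared transcript sequence bears on how firmly reads were assigned, since the authors' quantifier divides reads among transcripts that share 31-base words. In GENCODE M21 transcripts, 71.9% of the 31-base words of Rdh9 also occur in other genes, mostly in Rdh16f1 (68.3%), so the Rdh9 values are uncertain. The share was 24.9% for Rdh16f2, 22.4% for Rdh16, 17.0% for Aldh3b3 (14.9% with Aldh3b2) and 13.8% for Aldh1a7, all of that with Aldh1a1. It was 5.7% for Aldh1a1, 1.09% for Aox1 and 0.341% for Aox3, and Aldh1b1 and Aldh3a2 shared none. The longest open reading frames of Rdh16 and Rdh9 were 96.3% identical, against 91.5% for Rdh16 and Rdh16f2, 91.6% for Aldh1a1 and Aldh1a7 and 66.1% for Aox1 and Aox3.

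Library totals were 29291573 to 69550879 estimated counts. As a check of the operation label, 5 genes known to depend on androgen summed to 209 to 841 CPM (estimated counts scaled to library size) in ORX_IH, 170 to 483 in ORX_Nx, 3930 to 9650 in Sham_IH and 6250 to 7260 in Sham_Nx livers, so that no ORX library overlapped a Sham library. The androgen genes were listed with earlier results of these data known, so this is not an independent check of the label. The hepatocyte markers, of which none was at 0, summed to 79800 CPM or more in every library. Some libraries stood apart. Muscle markers were high in ORX_IH 1 and 2 and in Sham_Nx 2 and 3 (43.4 to 1110 CPM, against at most 10.1 CPM elsewhere), and pancreatic markers in ORX_IH 1, Sham_IH 5 and Sham_Nx 5 (242 to 1370 CPM, against at most 26.3 CPM elsewhere). Kupffer cell markers summed to 212 to 331 CPM in ORX_IH, 226 to 959 in ORX_Nx, 153.8 to 199.5 in Sham_IH and 169 to 275 in Sham_Nx livers, the highest being ORX_Nx 4 and 5. All 10 of them, and 9 of 12 acute phase genes, rose in ORX_Nx against Sham_Nx livers, beside 7.88% of all tested genes. In ORX_IH against Sham_IH livers 10 of 12 muscle markers rose, beside 1.31% of all tested genes. Their part in the members' values was not tested, other than by leaving libraries out. In bulk liver, fewer cells of a type and less RNA per cell cannot be told apart.

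Levels per transcript length were compared as RPKM, which is CPM divided by the gene's length in kilobases. Aldh1a1, the cytosolic retinal dehydrogenase, was the most abundant of the 10 in every group, at 368 ± 87.1 RPKM in ORX_IH, 415 ± 146 in ORX_Nx, 515 ± 46.1 in Sham_IH and 589 ± 79.8 in Sham_Nx livers (SD, n = 5, 5, 5 and 4). Aldh3a2, the fatty aldehyde dehydrogenase, had rank 2 in each group and Aldh3b3 rank 10. What changed was the middle of the order. Rdh16f2 had rank 3 in ORX_IH and ORX_Nx livers but rank 5 in Sham_IH and Sham_Nx livers. Aox3 had rank 4 in ORX_IH and rank 5 in ORX_Nx livers but rank 3 in both Sham groups. In Sham_Nx livers the libraries of neighbours in the order overlapped only for Rdh16f2 with Rdh16 and for Aox1 with Rdh9, whereas in ORX_Nx livers every pair of neighbours overlapped except Aox1 and Aldh3b3.

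**Figure D1:**
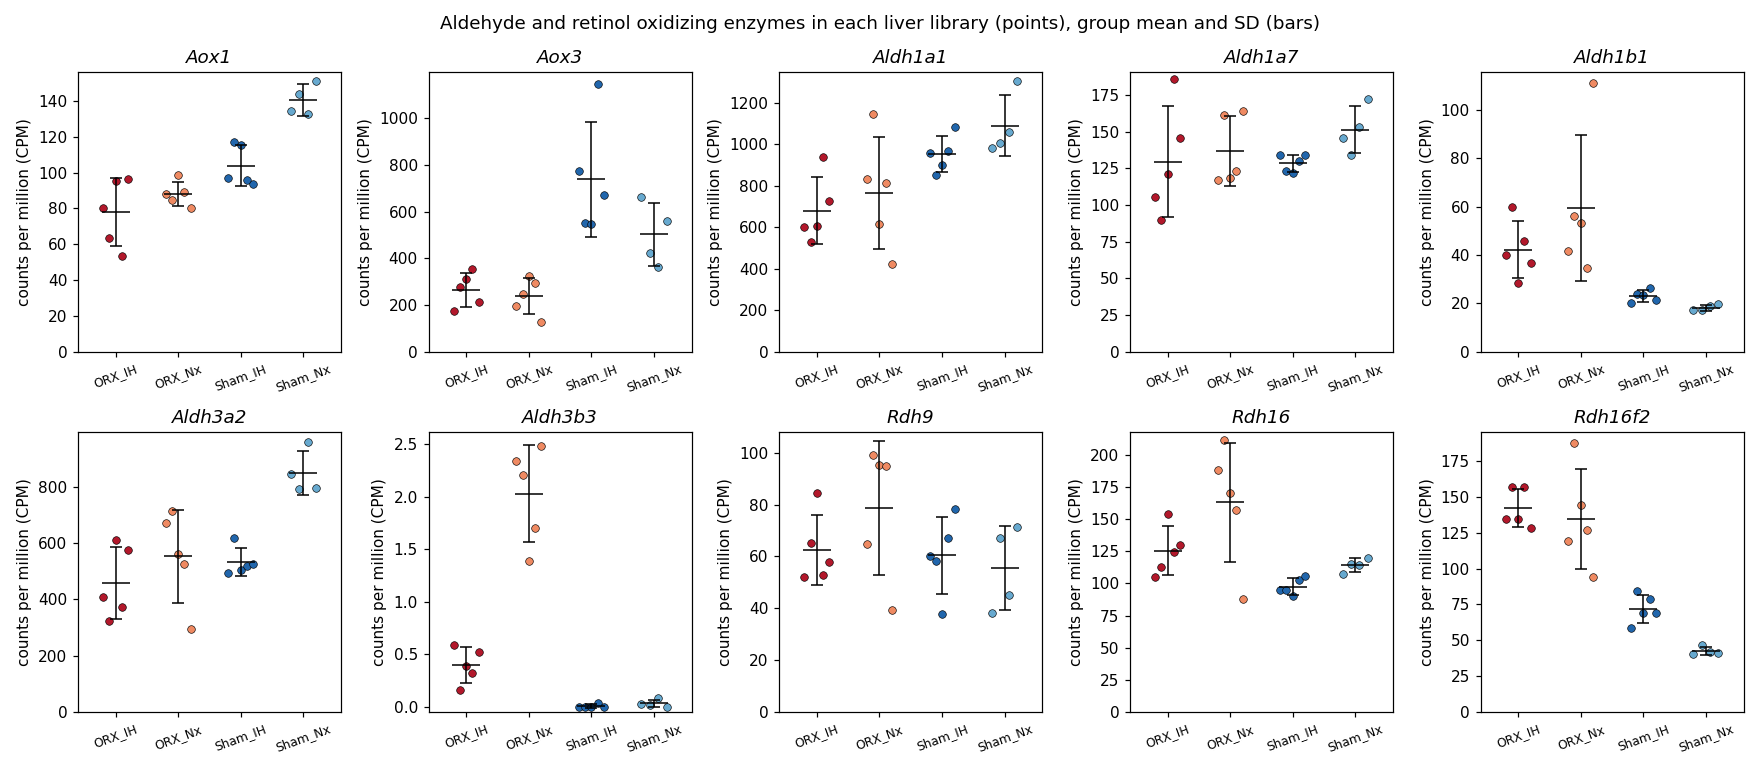
Level of each of the 10 genes (vertical axis, CPM, linear) in every library, with groups along the horizontal axis; points are libraries and bars the group mean ± SD. Rdh16f2 libraries lie between 94 and 188 CPM in the ORX groups and between 40.1 and 84.1 CPM in the Sham groups.

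Fold changes below come from 1 edgeR quasi-likelihood fit over all 16164 genes and 4 groups, and a gene is counted as called when its Benjamini-Hochberg adjusted p over all genes is under 0.05. Between ORX_Nx and Sham_Nx livers, 4 members were called higher and 2 lower, where 7.88% of all tested genes were called higher and 6.46% lower. Between ORX_IH and Sham_IH livers, 2 members were called higher and 1 lower, where 1.31% of all genes were called higher and 1.57% lower. Libraries of the compared groups did not overlap for 6 members in normoxia and 4 under hypoxia, beside 12.3% and 5.85% of all genes. Because the list was drawn up knowing these orchiectomy results, nothing is read from these counts. Orchiectomy calls of single members, here and under alternatives, are likewise description and not tests. The median log2 fold change of the 10 was 0.18 in normoxia and 0.03 under hypoxia, against 0.01 and 0 over all tested genes, since members differed in both directions.

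Aox3, the aldehyde oxidase with the higher level in mouse liver, was lower after orchiectomy under both exposures. It measured 196, 245, 323, 292 and 129 CPM in ORX_Nx livers, against 664, 423, 363 and 560 CPM in Sham_Nx livers. Under intermittent hypoxia it measured 176, 275, 313, 352 and 211 CPM in ORX_IH livers, against 773, 551, 547, 1147 and 671 CPM in Sham_IH livers. No ORX library reached the lowest Sham library of the same exposure. The log2 fold change was -1.08 ± 0.27 (SE) in ORX_Nx against Sham_Nx and -1.47 ± 0.26 in ORX_IH against Sham_IH, a level 2.12 and 2.78 times lower. Without the 4 muscle-high libraries the estimates were -0.97 and -1.33 and neither was called. The normoxia call was also lost with library numbers 1 to 16 alone (-0.88) and without Sham_Nx 2 (-0.92).

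Aox1, its neighbour, was lower by a smaller amount. It measured 88.2, 84.5, 98.4, 88.9 and 80.4 CPM in ORX_Nx livers, against 134.1, 143.6, 132.5 and 151.3 CPM in Sham_Nx livers. These groups were apart, and the log2 fold change was -0.67 ± 0.13. In ORX_IH livers Aox1 measured 80.3, 63.5, 95.4, 53.4 and 96.3 CPM, against 96.8, 117, 116, 96.0 and 93.5 CPM in Sham_IH livers. The hypoxia groups overlapped at their edges, and the log2 fold change of -0.42 ± 0.13 was not called in the fit over all libraries; it was called without ORX_IH 3 (-0.49), without ORX_IH 5 (-0.50) and with DESeq2 (-0.41).

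The ratio of Aox3 to Aox1 per length, which cancels a library's scaling, averaged 4.5 ± 2.22 in ORX_IH, 3.22 ± 0.888 in ORX_Nx, 8.83 ± 3.58 in Sham_IH and 4.33 ± 1.2 in Sham_Nx livers (SD). Single libraries ranged from 1.94 in ORX_Nx 5 to 14.4 in Sham_IH 4. The other family members, Aox4 and Aox2, had 22 and 81 counts over all 19 libraries and were not tested. Of 9 genes of molybdenum cofactor synthesis and other molybdoenzymes, 2 fell in ORX_Nx against Sham_Nx livers, beside 6.46% of all tested genes. They were Mocos, which sulfurates the cofactor of aldehyde oxidases (log2 fold change -0.42 ± 0.09, edgeR adjusted p = 0.0077), and Gphn, gephyrin, which completes the cofactor (-0.21 ± 0.07, adjusted p = 0.0429). Gphn also fell in ORX_IH against Sham_IH livers (-0.29 ± 0.06, adjusted p = 0.0189), where 1.57% of all tested genes were called lower. The other 7 genes were called in neither orchiectomy comparison. This list was also chosen with earlier results known, so nothing is read from its counts and p-values.

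Aldh3b3 had the widest fold difference of the 10 and the lowest level. This enzyme is known from mouse as a membrane-bound oxidizer of longer-chain aldehydes. Its estimated counts in ORX_Nx livers corresponded to 2.34, 2.21, 1.39, 1.70 and 2.49 CPM, against 0.0203, 0.0184, 0.0808 and 0 CPM in Sham_Nx livers. In ORX_IH livers it measured 0.591, 0.155, 0.386, 0.317 and 0.521 CPM, and 4 Sham_IH libraries had no count while Sham_IH 4 had 0.0355 CPM. Every ORX library stood above every Sham library. The gene passed the filter through its ORX libraries alone. Summed estimated counts were 556 in ORX_Nx and 7 in Sham_Nx livers, a ratio of 62.1 scaled for library size (95% exact interval 30.0 to 155.3, counting error only). They were 114.4 in ORX_IH and 2 in Sham_IH livers, a ratio of 46.3 (12.5 to 387). For a library at 0, the limit of 3 counts stood at 0.0519 CPM in Sham_Nx 5 and at 0.0533 to 0.108 CPM in the Sham_IH libraries. Sham_Nx 4 alone held 5 of the 7 Sham_Nx counts and Sham_IH 4 both Sham_IH counts, so both ratios rest on single libraries. The fitted log2 values, 5.93 ± 0.61 in normoxia and 5.19 ± 0.70 under hypoxia, depend on the prior count that edgeR adds. They were 7.10 in normoxia without Sham_Nx 4 and 7.43 under hypoxia without Sham_IH 4. Their ranges were 5.44 to 7.10 over 31 alternatives in normoxia and 4.58 to 7.43 over 30 under hypoxia. For hypoxia, not every alternative gave a value for this gene. Aldh3b2, with which part of the sequence is shared, had 74 counts over all libraries and was not tested. Aldh3b2 averaged 0.0642 RPKM in ORX_IH, 0.0543 in ORX_Nx, 0.00181 in Sham_IH and 0.00703 in Sham_Nx livers. Aldh3b3 averaged 0.133 RPKM in ORX_IH, 0.684 in ORX_Nx, 0.0024 in Sham_IH and 0.0101 in Sham_Nx livers. Both genes thus averaged higher in the ORX groups, and how reads were divided between them was not tested.

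Aldh1b1, a mitochondrial enzyme that oxidizes acetaldehyde and retinal, was higher after orchiectomy. It measured 41.6, 56.3, 53.2, 34.8 and 111 CPM in ORX_Nx livers, against 17.2, 17.2, 18.9 and 19.6 CPM in Sham_Nx livers. In ORX_IH livers it measured 39.9, 60.0, 28.6, 45.7 and 36.7 CPM, against 20.2, 24.0, 23.6, 26.3 and 21.4 CPM in Sham_IH livers. Both pairs of groups were apart, and ORX_Nx 5 stood well above the rest of its group. The log2 fold change was 1.70 ± 0.26 in normoxia, which was called, and 0.86 ± 0.24 under hypoxia, which was not. The hypoxia difference was called in 8 of the alternatives, among them DESeq2 (0.88) and the fit without ORX_Nx 5 (0.87).

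The 3 other aldehyde dehydrogenases leaned the other way or not at all. Aldh3a2, the endoplasmic reticulum enzyme whose human counterpart is mutated in Sjögren-Larsson syndrome, measured 670, 713, 559, 524 and 293 CPM in ORX_Nx livers, against 846, 791, 960 and 795 CPM in Sham_Nx livers. These did not overlap, but the log2 fold change of -0.62 ± 0.21 was not called; it was called with size factors of DESeq2 in edgeR, with DESeq2 itself, with limma on the authors' log2 table and without ORX_IH 2, ORX_IH 3, ORX_Nx 1 or ORX_Nx 2, at -0.62 to -0.73. Under hypoxia Aldh3a2 ranged over 322 to 610 CPM in ORX_IH livers, against 495 to 619 CPM in Sham_IH livers. Aldh1a1 had log2 fold changes of -0.51 ± 0.21 in normoxia and -0.49 ± 0.20 under hypoxia, neither called; the normoxia difference was called without ORX_Nx 2 (-0.70). Its libraries ranged over 529 to 937 CPM in ORX_IH, 424 to 1147 in ORX_Nx, 853 to 1080 in Sham_IH and 983 to 1304 in Sham_Nx livers, so the groups overlapped under both exposures. For Aldh1a7 the log2 fold changes were -0.15 ± 0.16 and 0.01 ± 0.15, with 95% intervals of -0.46 to 0.17 and -0.29 to 0.31. Aldh1a7 averaged 129.5 ± 37.8 CPM in ORX_IH, 136.8 ± 23.8 in ORX_Nx, 128.6 ± 5.77 in Sham_IH and 151.3 ± 16.0 in Sham_Nx livers (SD).

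The Aldh1a7 to Aldh1a1 ratio per length ranged over 0.166 to 0.197 in ORX_IH livers, against 0.122 to 0.142 in Sham_IH livers, and these did not overlap. In normoxia it ranged over 0.138 to 0.38 in ORX_Nx livers, against 0.13 to 0.146 in Sham_Nx livers, which overlapped. The value of 0.38 came from ORX_Nx 5, the next ORX_Nx library being at 0.188. Part of both transcripts' sequence is shared, so the ratio rests on how reads were divided.

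Rdh16f2, a retinol dehydrogenase of the Rdh16 family, was higher after orchiectomy under both exposures. It measured 119.5, 187.8, 144.1, 127.1 and 94.0 CPM in ORX_Nx livers, against 40.1, 46.7, 42.1 and 41.3 CPM in Sham_Nx livers. In ORX_IH livers it measured 134.8, 156.6, 134.7, 156.9 and 128.2 CPM, against 58.8, 84.1, 69.3, 78.6 and 69.2 CPM in Sham_IH livers. The lowest ORX library was above the highest Sham library. The log2 fold change was 1.66 ± 0.15 in normoxia and 0.98 ± 0.14 under hypoxia, levels 3.16 and 1.97 times higher. Under the alternatives the log2 fold changes were 1.51 to 1.82 in normoxia and 0.92 to 1.11 under hypoxia. Rdh16f2 was chosen with orchiectomy results known, so these values are description.

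Rdh16, the enzyme the family is named for, known in rodents for oxidizing retinol and androgen-type steroids, differed less. It measured 188.2, 211.6, 170.0, 157.5 and 88.0 CPM in ORX_Nx livers, against 107.2, 115.4, 114.1 and 120.0 CPM in Sham_Nx livers. All but ORX_Nx 5 were above the Sham_Nx livers, and ORX_Nx 5 was below them. The log2 fold change of 0.51 ± 0.17 was called in the fit over all libraries but lost under many alternatives, including limma-voom (0.44) and the fit of the compared groups alone (0.50). Under hypoxia Rdh16 ranged over 104.8 to 154.4 CPM in ORX_IH livers, against 89.9 to 105.4 CPM in Sham_IH livers, with a log2 fold change of 0.36 ± 0.16. Rdh9, most like Rdh16 in its reading frame, ranged over 52.1 to 84.5 CPM in ORX_IH, 39.4 to 99.2 in ORX_Nx, 37.9 to 78.4 in Sham_IH and 38.3 to 71.5 in Sham_Nx livers. Its log2 fold changes of 0.50 ± 0.26 in normoxia and 0.05 ± 0.24 under hypoxia were not called, and all groups overlapped.

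Within a library, the Rdh16f2 to Rdh16 ratio per length was close to 1 in Sham_Nx livers only. It averaged 3.19 ± 0.602 in ORX_IH, 2.34 ± 0.428 in ORX_Nx, 2.04 ± 0.295 in Sham_IH and 1.03 ± 0.0663 in Sham_Nx livers (SD, n = 5, 5, 5 and 4). The 4 Sham_Nx libraries lay at 0.948 to 1.11, below the lowest library of any other group, 1.70 in Sham_IH 1. ORX_Nx 5, whose Rdh16 and Rdh16f2 were both low for its group, had the highest ORX_Nx ratio, 2.94. Part of both transcripts' sequence occurs in other genes, so the Rdh16f2 to Rdh16 ratio rests on how reads were divided. Its absolute value also depends on the gene lengths used. The Rdh9 to Rdh16 ratio averaged 0.639 ± 0.0854 in ORX_IH, 0.622 ± 0.13 in ORX_Nx, 0.787 ± 0.151 in Sham_IH and 0.619 ± 0.158 in Sham_Nx livers, differences within the spread of libraries.

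**Figure D2:**
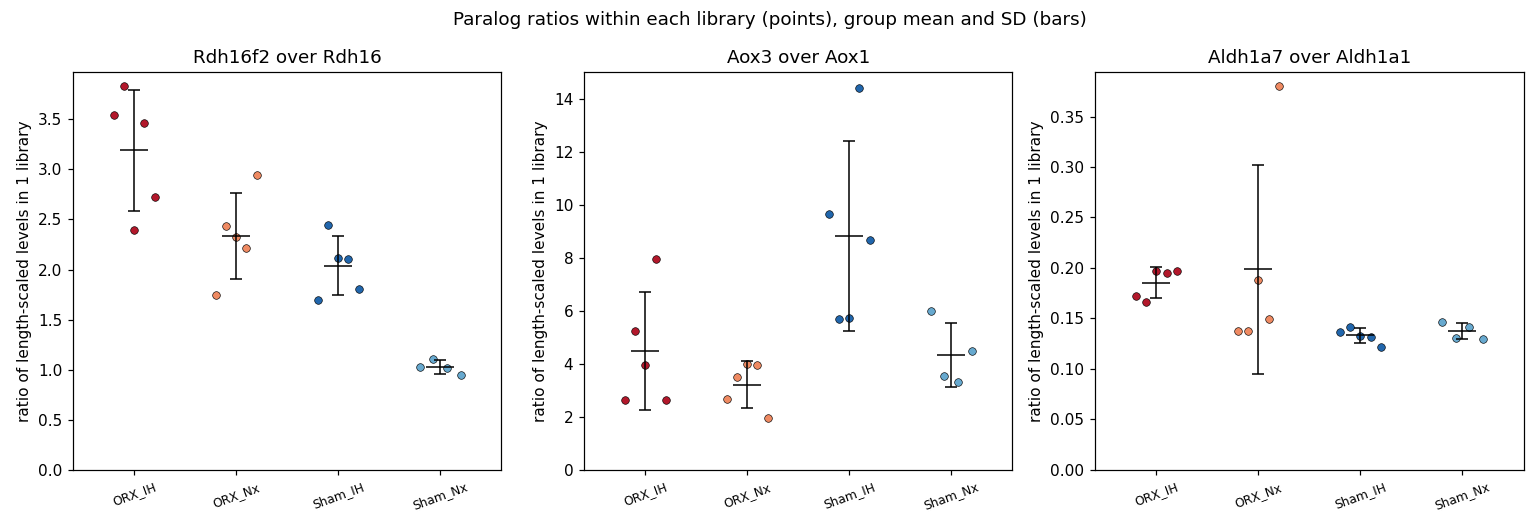
Ratio of length-scaled levels of 3 paralog pairs in each library (vertical axes, no unit), with groups along the horizontal axis; points are libraries and bars the group mean ± SD. The Rdh16f2 to Rdh16 ratio is 0.948 to 1.11 in Sham_Nx livers and 1.70 or more in every other library.

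In Sham_IH against Sham_Nx livers, 1 member rose and none fell, where 0.099% of all genes were called higher, and 5 members did not overlap, beside 8.51% of all genes. The member that rose was Rdh16f2, with the library values given above, all 5 Sham_IH livers above all 4 Sham_Nx livers. The Sham_Nx libraries also entered the orchiectomy difference known when the list was chosen, so the p-value of Rdh16f2 is not an independent test. The log2 fold change of Rdh16f2 was 0.76 ± 0.15, 1.69 times higher (edgeR adjusted p = 0.0341). This call was near the threshold: the change was 0.70 to 0.80 and lost its call on leaving out any compared library other than Sham_IH 1, with library numbers 1 to 16 alone (adjusted p = 0.0746), and without the muscle-high or the pancreas-high libraries (adjusted p = 0.374 and 0.192).

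The other 4 members whose Sham_IH and Sham_Nx libraries did not overlap were Aox1, Aldh1b1, Aldh3a2 and Rdh16. Aldh3a2 averaged 532 ± 50.2 CPM in Sham_IH livers and 848 ± 78.7 CPM in Sham_Nx livers, a log2 fold change of -0.67 ± 0.21 (edgeR adjusted p = 0.156). Aox1 averaged 104 ± 11.5 CPM in Sham_IH livers and 140 ± 8.79 CPM in Sham_Nx livers (-0.44 ± 0.13, edgeR adjusted p = 0.157). With the compared groups alone in the fit, the edgeR adjusted p was 0.00596 for Aldh3a2, 0.0178 for Aox1 and 0.0494 for Rdh16, and with DESeq2 it was 0.0339 for Aldh3a2 and 0.0493 for Aox1. Aldh1b1 averaged 23.1 ± 2.40 CPM in Sham_IH livers and 18.2 ± 1.24 CPM in Sham_Nx livers (0.34 ± 0.26, edgeR adjusted p = 0.622). Aox3 went the other way from Aox1, at 738 ± 247 CPM in Sham_IH livers and 502 ± 135.3 CPM in Sham_Nx livers, but its groups overlapped and its log2 fold change of 0.55 ± 0.28 was not called (edgeR adjusted p = 0.406).

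In ORX_IH against ORX_Nx livers 1 member fell, where 0.0557% of all genes were called lower, and 1 member did not overlap, beside 2.3% of all genes. That member was Aldh3b3, whose highest ORX_IH library, 0.591 CPM, was below the lowest ORX_Nx library, 1.39 CPM. The ORX_Nx libraries also entered the orchiectomy difference known when Aldh3b3 was chosen, so its p-value here is not an independent test. The Aldh3b3 log2 fold change was -2.34 ± 0.42 (edgeR adjusted p = 0.0489). That is a fold of 0.197, with a 95% interval of 0.111 to 0.348 from the fit. The counting ratio was 0.207 (95% exact interval 0.167 to 0.253, counting error only, without the spread between mice). The direction held in every alternative, but 20 of 31 alternatives took the adjusted p above 0.05, up to 0.238 without the muscle-high libraries. Rdh16 averaged 125 ± 19.0 CPM in ORX_IH livers and 163 ± 46.6 CPM in ORX_Nx livers (-0.38 ± 0.16, edgeR adjusted p = 0.222). Without ORX_Nx 5, its log2 fold change was -0.53 (edgeR adjusted p = 0.0294). Rdh16f2, which rose with hypoxia in Sham livers, was not called between the ORX groups, at 142.2 ± 13.5 CPM in ORX_IH and 134.5 ± 34.8 CPM in ORX_Nx livers (0.08 ± 0.14, 95% interval -0.18 to 0.35).

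**Figure D3:**
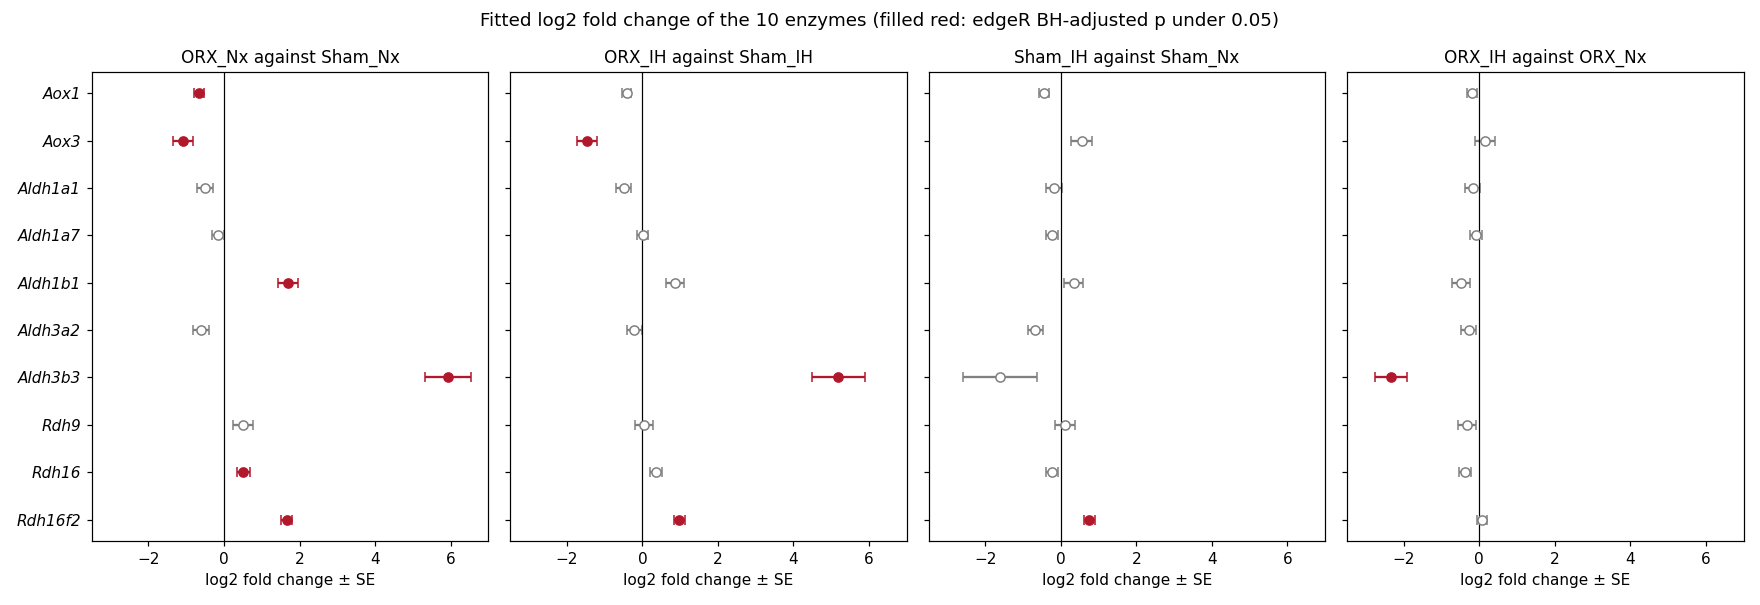
Fitted log2 fold change (horizontal axis) ± SE of the 10 genes (vertical axis) in 4 comparisons; filled red points have an edgeR adjusted p under 0.05 and open grey points do not. Aldh3b3 stands farthest from 0 in both orchiectomy comparisons, and the hypoxia comparisons hold 1 filled point each.

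Whether orchiectomy acted differently under the exposures was tested as an interaction. None of the 10 passed, nor did any gene (0% of 16164 called by edgeR; 1025 genes and 2 members had an unadjusted p under 0.05, and DESeq2 called 63 genes and no member). The 2 members were Rdh16f2, with a difference of -0.68 ± 0.20 between its log2 fold changes (unadjusted p = 0.00291, edgeR adjusted p = 0.511), and Aldh1b1, with -0.84 ± 0.35 (unadjusted p = 0.0272, edgeR adjusted p = 0.752). The Rdh16f2 estimate stayed between -0.83 and -0.53 over 30 alternatives. P-values of members in this paragraph use libraries of the orchiectomy differences known when the list was chosen, so they are not independent tests. Averaged over both operations, intermittent hypoxia gave 2 called members where 4.53% of all genes were called. Rdh16f2 rose by 0.42 ± 0.10 on the log2 scale (edgeR adjusted p = 0.0249). Its call was lost in 5 of 30 alternatives, among them the fits without Sham_Nx 2 (adjusted p = 0.0537) and without Sham_Nx 5 (adjusted p = 0.06), at 0.41 each. Aldh3b3 had -1.98 ± 0.55 (edgeR adjusted p = 0.0465), a value that rests in part on Sham groups with 2 and 7 counts. It ranged over -3.08 to -1.39 under the alternatives, was -1.39 without Sham_Nx 4 (adjusted p = 0.28), and lost its call in 22 of 30. Aox1 at -0.31 ± 0.09 and Aldh3a2 at -0.47 ± 0.14 were just above the threshold (edgeR adjusted p = 0.0653 and 0.0657).

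Related genes outside the list were counted for the same comparisons. Members were taken from these families with the orchiectomy results known, so nothing is read from the remainder. The families were also listed with earlier results known, so p-values of their genes are given as description. Of 14 tested aldehyde dehydrogenases outside the list, 1 rose and 1 fell in ORX_Nx against Sham_Nx livers, where 7.88% of all genes were called higher and 6.46% lower. Aldh18a1, of proline synthesis, rose by 1.18 ± 0.39 (edgeR adjusted p = 0.0481), and Aldh7a1, of lysine breakdown, fell by 0.37 ± 0.09 (edgeR adjusted p = 0.00908). Aldh7a1 also fell by 0.31 ± 0.08 in ORX_IH against Sham_IH livers (edgeR adjusted p = 0.0462), and none was called in either hypoxia comparison. Aldh2, the mitochondrial acetaldehyde oxidizer, had the highest level of the family per length and averaged 1460 RPKM in ORX_IH, 1460 in ORX_Nx, 1390 in Sham_IH and 1450 in Sham_Nx livers. Of 12 tested retinol dehydrogenases outside the list, 1 rose in ORX_Nx against Sham_Nx livers, Rdh5, known for its role in the visual cycle (0.50 ± 0.13, edgeR adjusted p = 0.0152). Rdh7, next to Rdh16f2 on the chromosome and the most abundant of its family, averaged 535 RPKM in ORX_IH, 548 in ORX_Nx, 610 in Sham_IH and 618 in Sham_Nx livers and was not called.

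The retinoid list of storage, transport and signalling genes had 3 of 20 tested genes higher and none lower in ORX_Nx against Sham_Nx livers. Over all tested genes, 7.88% were called higher and 6.46% lower there. Among the 3 were the lipid-droplet lipase Pnpla3 (1.92 ± 0.56, edgeR adjusted p = 0.0302) and the retinoic acid receptor Rarg (0.48 ± 0.13, edgeR adjusted p = 0.0188). No gene of the retinoid list was called in the other comparisons. Nothing is read from the counts and p-values in this paragraph, since its lists were chosen with earlier results known. Stellate cells store retinoids, and 3 of 10 stellate markers rose in ORX_Nx against Sham_Nx livers, beside 7.88% of all tested genes. Their part in the result was not tested. Of 5 tested alcohol dehydrogenases, Adh4 fell in ORX_Nx against Sham_Nx livers (-0.39 ± 0.11, edgeR adjusted p = 0.0219). Among 15 other aldehyde and carbonyl enzymes, 5 rose and 2 fell in that comparison, beside 7.88% and 6.46% of all tested genes. Those that rose were led by Hsd17b6, a hydroxysteroid oxidizer encoded close to Rdh16f2. Hsd17b6 averaged 272 CPM in ORX_Nx livers and 67.9 CPM in Sham_Nx livers (2.00 ± 0.39, edgeR adjusted p = 0.00345). Averaged over both operations, 2 of the 15 were called lower under hypoxia, where 4.53% of all tested genes were called in either direction. They were Hsd17b13, a lipid-droplet retinol dehydrogenase (-0.26 ± 0.06, edgeR adjusted p = 0.0189), and the aldehyde reductase Akr1a1 (-0.20 ± 0.05, edgeR adjusted p = 0.0425).

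One library carried much of the within-group spread. The mean absolute deviation of the 10 genes from their group mean was 0.64 on the log2 CPM scale in ORX_Nx 5 and 0.12 to 0.37 in the other 18 libraries. In ORX_Nx 5, 7 members lay below the group mean, by up to 0.92 for Rdh9, and Aldh1b1 lay 1.03 above it. This library had the lowest hepatocyte marker sum of all (79800 CPM), a Kupffer cell marker sum of 633 CPM, and a total of 30618096 counts, and the part of these in its member values was not tested. Leaving out ORX_Nx 4 and 5 together, the normoxia calls of the members were the same 6.

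**Figure D4:**
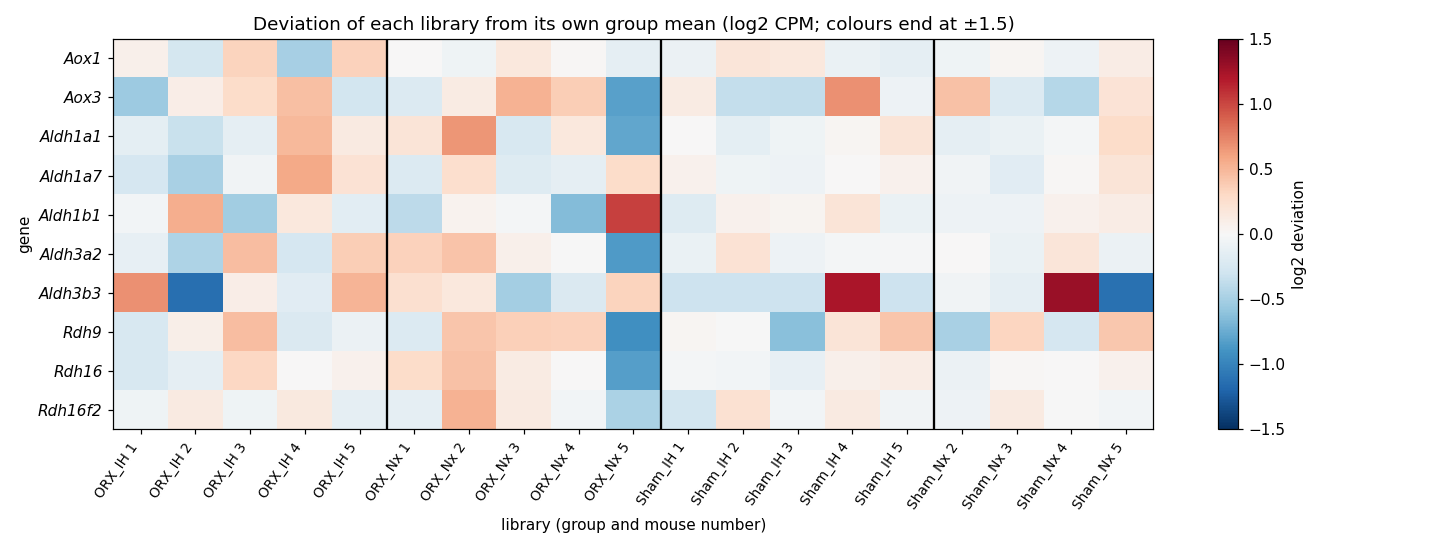
Deviation of each library (columns, groups divided by lines) from its own group mean for each gene (rows), in log2 CPM with a prior count of 1; red is above and blue below. ORX_Nx 5 departs most, with a mean absolute deviation of 0.64, and the strong Aldh3b3 colours in the Sham groups stand for 0 to 5 counts per library.

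Across all 19 libraries, which share the group differences, the genes whose log2 CPM followed each member most closely are given as description. For Rdh16f2 they were Abcd2 (Pearson r = 0.932), Cyp3a44 (0.927) and Rps4x (0.925). For Aldh3b3 they were Fgd1 (0.936), Rtn4 (0.932) and Slc22a26 (0.931), for Aox3 they were Ces3a (0.931), Hao1 (0.93) and Carmil1 (0.926), and for Aldh3a2 they were Acaa1b (0.95), Skp1 (0.946) and Acad11 (0.936). The first gene was Srr for Aox1 (0.933), Mup5 for Aldh1a1 (0.932), Mme for Rdh16 (0.921) and Tmem219 for Rdh9 (0.852), and Aldh1a7 had no gene above 0.704. Among the members themselves, the strongest coefficients were -0.83 for Aox3 with Aldh3b3 and -0.81 for Aox1 with Rdh16f2.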

How the data were processed

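Poly(A)-selected, strand-specific libraries were made from frozen liver, per the labels' protocols. Per the submitters' processing notes, the tools were kallisto 0.46.1 for quantification and bcl2fastq 2.20, fastp 0.23.2, FastQC 0.11.9 and MultiQC 1.12 before it, and the build was GRCm39. The authors deposited estimated counts per gene, made by kallisto per the submitters' processing notes; 27.5% of these values were not whole, and they were rounded here. The authors also deposited a log2 expression table with an F-statistic score, a p-value and a q-value per gene, which the authors labelled TMM, with no further detail in the sources used here; its p-values and q-values are not reported. Of 20 mice in the labels, 19 had a column, and Sham_Nx mouse 1 was not analysed here. Whether libraries with the same mouse number are related is not stated; p-values measure the spread between mice.

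CPM and RPKM were computed with TMM factors, the latter with the mean gene length of the authors' table. Main tests used edgeR 4.0.16 (quasi-likelihood, filterByExpr with a minimum count of 10, all 4 groups in 1 fit, Benjamini-Hochberg over 16164 genes, threshold 0.05). Alternatives used DESeq2 1.42.0, limma 3.58.1, other scalings and filters, and fewer libraries. The fit was also run on simulated data, and nothing is read from that run here. Replicates were not duplicates of each other (chi-square per degree of freedom 19.4 to 190 over 36 pairs). Members and gene lists were chosen with earlier results of these data known. All 10 members are named; from the lists, genes passing the test, up to 6 per list and comparison by smallest adjusted p, and the 3 genes with the highest Pearson r to a member (the first alone for some members). A few genes that these rules would name are not reported here. Promoter windows were matched by symbol for all 10 members (11 entries) and reading frames came from GENCODE M21 transcripts.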

Additional observations from a re-analysis of the deposited data

Results flagged for a closer look

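A single library stood far from the rest of its group in 3 of the 40 member and group sets examined, and chance alone flags about 1 in 20 such sets. Aldh1b1 measured 111 CPM in ORX_Nx 5, and the next ORX_Nx library measured 56.3 CPM. Aldh3a2 measured 619 CPM in Sham_IH 2, and the next Sham_IH library measured 524 CPM. Aldh3b3 measured 0.0355 CPM in Sham_IH 4, which stands for 2 counts, and the other Sham_IH libraries had 0. With the others at 0, any count in 1 library would have been flagged.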

How the results depend on the processing

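Over 1838 member values under alternatives, no called value changed sign, 85 lost a call and 43 gained one. The count of 6 members called in ORX_Nx against Sham_Nx was 4 to 7 under the alternatives, and 4 without Sham_Nx 2 or without the muscle-high libraries. For ORX_IH against Sham_IH (3 called), Aox3 lost its call without the muscle-high libraries (-1.33). Aldh1b1 and Rdh16 gained one with the compared groups alone. The count for this comparison was 5 without scaling, with DESeq2 and without ORX_Nx 4 and 5, and 3 to 5 on leaving out 1 library. For Sham_IH against Sham_Nx (1 called), it was 3 with DESeq2, 4 with the compared groups alone, 2 without ORX_Nx 4 and 5, and 0 with library numbers 1 to 16, without the muscle-high or without the pancreas-high libraries, and 0 to 2 on leaving out 1 library. For ORX_IH against ORX_Nx (1 called), it was 0 without a filter, with limma on the authors' table, with the compared groups alone, with library numbers 1 to 16, without the muscle-high or without the pancreas-high libraries, and 0 to 2 on leaving out 1 library. For hypoxia averaged over both operations (2 called), it was 1 without scaling, without a filter and with limma-voom, 4 with DESeq2, 0 without the muscle-high or the pancreas-high libraries, and 0 to 3 on leaving out 1 library (0 without Sham_Nx 2, 3 without ORX_IH 3 or ORX_Nx 5). The causes were not tested, but settings that leave out libraries also have fewer mice. No member was called for the interaction under any alternative.

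Counts over all genes ranged over 422 to 3078 for ORX_Nx against Sham_Nx (2319 in the fit over all libraries), 107 to 971 for ORX_IH against Sham_IH (465), 0 to 483 for Sham_IH against Sham_Nx (49), 0 to 712 for ORX_IH against ORX_Nx (12), 8 to 1444 for hypoxia averaged over both operations (733) and 0 to 63 for the interaction (0). Without scaling, all tested genes had a median orchiectomy log2 fold change of 0.14 in normoxia and 0.13 under hypoxia, with 2362 genes higher and 372 lower, and 830 higher and 141 lower. Deviations of same-numbered libraries correlated at -0.20 to 0.40, with means of -0.07 to 0.05 per mouse number. The highest value was within mouse number 5, whose libraries hold library numbers 17 to 20. In all, 8 of 19 libraries correlated best with their own number. These values do not settle whether mouse numbers pair the libraries. With the mouse number as a replicate block, the count was 0 for ORX_IH against ORX_Nx and 1 for hypoxia averaged over both operations. Depth limits Aldh3b3 most, at 7 counts in Sham_Nx and 2 in Sham_IH livers.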
